A study of Mus musculus with 4 samples.

Results

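Quiet homeostatic microglia were taken as the resident macrophages of the brain that carried microglial surface markers and no detected transcript of 4 sets of activation genes. A cell barcode was a member when it held 500 or more unique molecular identifiers (UMIs, one per captured RNA molecule) and 200 or more genes, with no more than 20% of its UMIs mitochondrial. Members were selected on at least 5 UMIs summed over P2ry12, Tmem119, Siglech and Gpr34. They also had to hold 0 UMIs of the cytokine genes Tnf, Il1a and Il1b and 0 of the disease-associated genes Cst7, Lpl, Spp1, Gpnmb and Itgax. The same limit of 0 held for the interferon-induced genes Ifit1, Ifit2, Ifit3, Isg15 and Rsad2 and for the MHC class II genes H2-Aa, H2-Ab1 and H2-Eb1. Limits on markers of oligodendrocytes (at most 2 UMIs of Mog and Mag), astrocytes (at most 2 of Slc1a2 and Aqp4) and endothelium (at most 1 of Cldn5) removed barcodes that mixed cell types. The rule found 4616 members, 10.4% of the 44503 barcodes that passed the quality limits and 39.8% of the 11585 microglial barcodes, meaning those that met the marker and lineage limits whatever their activation genes. Since these values chose the members, none of them is a result, and the 6969 microglial barcodes that failed an activation limit are set beside the members only as a description.

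The study compared the brain hemisphere opposite to an intracranial injection in C57BL/6 mice. Old tumour denotes mice of 93 weeks that had received 1000 CT2A-GFP-luc cells, a mouse glioblastoma line labelled with a fluorescent protein and luciferase, and old sham denotes mice of that age given PBS. Young tumour and young sham denote mice of 8 weeks treated in the same ways. Tissue was taken 2 weeks after the injection, dissociated with a commercial adult brain kit and profiled by 10x Genomics 3′ single-cell RNA sequencing, 1 library per group. The labels give neither the number nor the sex of the mice behind a library, nor a dissociation or sequencing batch, so group, animal and batch cannot be told apart and no difference between groups was tested. The tissue lay away from the graft, so every tumour value below concerns the uninjected side.

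Microglia settle in the brain before birth and maintain themselves there under signalling through Csf1r and TGF-beta, which holds a set of genes rarely seen in other macrophages. In the undisturbed brain they survey their surroundings with motile processes guided by the ATP and ADP receptor P2ry12, take up debris and synapses with the help of complement and Trem2, and listen to neurons through the fractalkine receptor Cx3cr1. On injury, infection or degeneration, they lower parts of this programme and turn on cytokines, antigen presentation, interferon-induced genes or lipid-handling genes, the 4 directions that the rule shut out.

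The libraries held 62726818 to 76652484 UMIs in 10665 to 12070 barcodes each. Members numbered 858 in old tumour, 395 in old sham, 1368 in young tumour and 1995 in young sham, with median depths of 4138, 3816, 2978 and 3440 UMIs in that order of groups. Their summed UMIs came to 3627496 in old tumour, 1445957 in old sham, 4135593 in young tumour and 7140495 in young sham, so ratios against old sham carried the widest counting error. Levels are given as CPM, the UMIs of a gene per 1000000 UMIs summed over the members of a library, each sum being 1 value per group. Values in brackets after a ratio or a share are exact 95% intervals, which cover counting error and not the spread between cells or between mice. Where the cells of a library differed by more than counting, as for Ccl4, Fos and Apoe below, the intervals of ratios are too narrow. The 3′ tags count molecules without regard to gene length. Y-linked Ddx3y stood at 76.9 CPM in old tumour, 74.0 in old sham, 79.1 in young tumour and 80.2 in young sham, so each library held male cells. Old sham stood apart from the other libraries in 2 abundant nuclear or ribosomal transcripts, namely Gm42418 and Malat1. Gm42418 stood at 34908 CPM in old tumour, 11665 in old sham, 33721 in young tumour and 32859.6 in young sham. Malat1 stood at 18197 CPM in old tumour, 27899.9 in old sham, 18887 in young tumour and 18932 in young sham. A barcode sequence was found in more than 1 library for 47 members, and 2 sequences were members in 2 libraries. Scrublet doublet calls were not used to remove members and fell on 20 in old tumour, 8 in old sham, 42 in young tumour and 76 in young sham.

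Quiet cells made up 35.7% (33.7 to 37.6) of microglial barcodes in old tumour, 16.03% (14.6 to 17.5) in old sham, 46.0% (44.2 to 47.8) in young tumour and 53.4% (51.7 to 55.0) in young sham. The share was lowest in old sham and highest in young sham, with old tumour above its sham and young tumour below its sham. The gene set that left out most microglia was the cytokine set, which 46.1% of microglial barcodes failed in old tumour, 77.0% in old sham, 24.1% in young tumour and 35.0% in young sham. MHC class II genes left out 13.6% in old tumour, 9.29% in old sham, 30.3% in young tumour and 5.43% in young sham, so in young tumour they removed more microglia than the cytokine set did. Interferon-induced genes left out 18.99% in old tumour, 18.99% in old sham, 16.7% in young tumour and 7.86% in young sham. Disease-associated genes left out 19.5%, 18.0%, 15.7% and 9.55% in the same order of groups.

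A count of 0 depends on how deeply a barcode was read. When each barcode was thinned to 2000 UMIs and shallower ones were left out, the quiet share became 55.5% in old tumour, 27.6% in old sham, 60.7% in young tumour and 67.1% in young sham. Each share was higher after thinning, and the order of the 4 libraries was kept. Members were shallower than the microglia left out, whose medians were 5150 UMIs in old tumour, 5313 in old sham, 3619.5 in young tumour and 4114 in young sham. Of the barcodes that failed on cytokine genes alone, 276 of 599 in old tumour, 216 of 1147 in old sham, 253 of 326 in young tumour and 504 of 994 in young sham held a single cytokine UMI and thus lay just outside the limit. At the marker threshold, 14 members in old tumour, 12 in old sham, 16 in young tumour and 29 in young sham held exactly 5 marker UMIs, while 18, 11, 15 and 40 barcodes in that order of groups held 4 and lay just outside. Cst3, an abundant microglial product, stood at 47330 CPM in the members with 5 marker UMIs in old tumour, 18207 in old sham, 63991 in young tumour and 11551 in young sham, against 14482, 18441, 38892 and 37875 CPM in the barcodes just outside, so the 2 sides of the threshold overlapped.

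**Figure D1:**
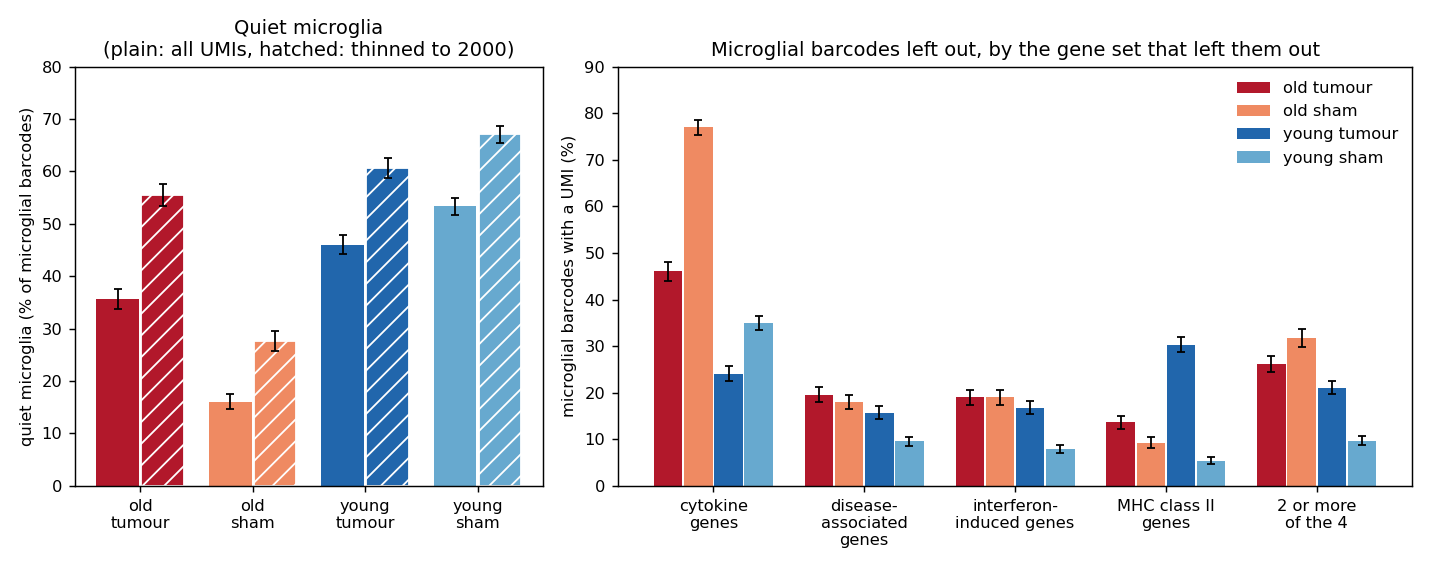
The left panel gives quiet microglia as a percentage of microglial barcodes in each library, plain bars for all UMIs and hatched bars after thinning to 2000 UMIs, and the right panel gives the percentage of microglial barcodes with a UMI of each activation gene set (error bars: exact 95% binomial intervals). Old sham has the lowest quiet share (16.03%) and the highest share failing the cytokine limit (77.0%), and young tumour stands out for MHC class II (30.3%).

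The label of homeostatic microglia was checked on identity genes that the rule did not use, and these were high in all 4 libraries. Of the rule markers, which are a description, P2ry12 stood at 2642 CPM in old tumour, 2548 in old sham, 2890.0 in young tumour and 2918 in young sham. Tmem119, a membrane protein of unknown ligand, stood at 1166 CPM in old tumour, 1166 in old sham, 1391 in young tumour and 1326 in young sham. Siglech, a sialic acid binding receptor, stood at 1204 CPM in old tumour, 1370.0 in old sham, 1339 in young tumour and 1336 in young sham. Gpr34, a lysophosphatidylserine receptor, stood at 1788 CPM in old tumour, 1544 in old sham, 2116 in young tumour and 2055 in young sham. In GRCm38, P2ry12 lies at chr3:59216272-59262871 (minus strand), Tmem119 at chr5:113793729-113800516 (minus), Siglech at chr7:55768178-55778925 (plus) and Gpr34 at chrX:13632089-13640858 (plus). As a background, 8715 genes reached 10 CPM in some library. Of these, 10.8% differed by 1.5-fold or more between old tumour and old sham, 5.37% being higher and 5.45% lower in old tumour. Between young tumour and young sham 4.59% differed, 2.12% being higher and 2.47% lower in young tumour. Between old tumour and young tumour 5.84% differed, 3.40% being higher and 2.44% lower in old tumour. Between old sham and young sham 12.9% differed, 7.34% being higher and 5.57% lower in old sham. Each tumour comparison shares a library with each age comparison. The tumour comparisons share no library with each other, nor do the age comparisons. A gene is said to rise or fall below only where its ratio passed 1.5-fold.

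None of the identity genes passed 1.5-fold in any of the 4 comparisons. All 20 surface receptors, all 14 transcription factors and all 16 secreted or lysosomal products also stayed within 1.5-fold between their highest and lowest library, which 6708 of the 8715 genes did (77.0%). That share counts genes from 10 CPM up, and a smaller part of abundant genes passed 1.5-fold. Among 3533 genes with 50 CPM, 152 were higher and 72 lower in old sham than in young sham, against 640 and 485 of the 8715. A share over genes of like level was not taken. Cx3cr1 stood at 3081 CPM in old tumour, 3497 in old sham, 3297 in young tumour and 3232 in young sham. Csf1r, the receptor for the survival factors Csf1 and Il34, had 2240.1 CPM in old tumour, 2468 in old sham, 2756 in young tumour and 2719.7 in young sham. Trem2, a lipid and lipoprotein receptor, had 3149 CPM in old tumour, 3004 in old sham, 3185 in young tumour and 3098 in young sham. For these 3 receptors no comparison passed 1.5-fold. The widest spreads among the 20 receptors were those of Lag3 and Fcrls. Fcrls, an Fc receptor-like gene used as a microglial marker in mice, stood at 1347 CPM in old tumour against 1899 in young tumour, and 1507 in old sham against 1999 in young sham. Its old over young ratio was 0.709 (0.684 to 0.735) with tumour and 0.754 (0.720 to 0.789) in sham, both short of 1.5-fold. Lag3, an inhibitory receptor, had the reverse order, at 161 CPM in old tumour against 120.2 in young tumour, and 179.8 in old sham against 129.7 in young sham, also within the threshold.

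The median ratio of a gene's highest to its lowest library was 1.12 over the transcription factors, 1.17 over the receptors and 1.19 over the products, and its maximum was 1.38, 1.496 and 1.35 in that order. Sall1, which represses the programme of other macrophages, stood at 343 CPM in old tumour, 322 in old sham, 349 in young tumour and 315 in young sham. The median log2 ratio over the 14 factors was -0.04 for old tumour over old sham, 0.01 for young tumour over young sham, 0.00 for old over young tumour and 0.06 for old over young sham, beside -0.04, 0.05, -0.02 and 0.06 over all genes. Among the products, Cst3, which encodes the protease inhibitor cystatin C, was the most abundant transcript at 57680.3 CPM in old tumour, 56693 in old sham, 65644 in young tumour and 67671 in young sham. The complement gene C1qa, part of the C1q molecule that tags targets for uptake, had 10332 CPM in old tumour, 10061 in old sham, 10673 in young tumour and 10587 in young sham. All 7 complement genes with enough UMIs stayed within 1.5-fold over the libraries. Secreted products had medians of -0.18 in old over young tumour and -0.11 in old over young sham, and Cst3 was lower in both old libraries than in both young ones, within 1.5-fold.

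Of 11 measured TGF-beta signalling genes, 1 passed the threshold. It was Pmepa1, a TGF-beta target that feeds back on the pathway, which was higher in old tumour than in young tumour at 1242 against 677 CPM, a ratio of 1.84 (1.75 to 1.92). In sham it stood at 1185 CPM in old mice against 942 in young mice, a ratio of 1.26 (1.19 to 1.33), short of 1.5-fold. Lysosomal and phagocytic genes (21 measured) and Fc and Toll-like receptors (14 measured) were as even, with 20 and 13 of them within 1.5-fold over all 4 libraries. The receptor past it was the activating Fc receptor Fcgr4, which stood at 18.2 CPM in old tumour, 20.1 in old sham, 18.4 in young tumour and 12.9 in young sham.

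**Figure D2:**
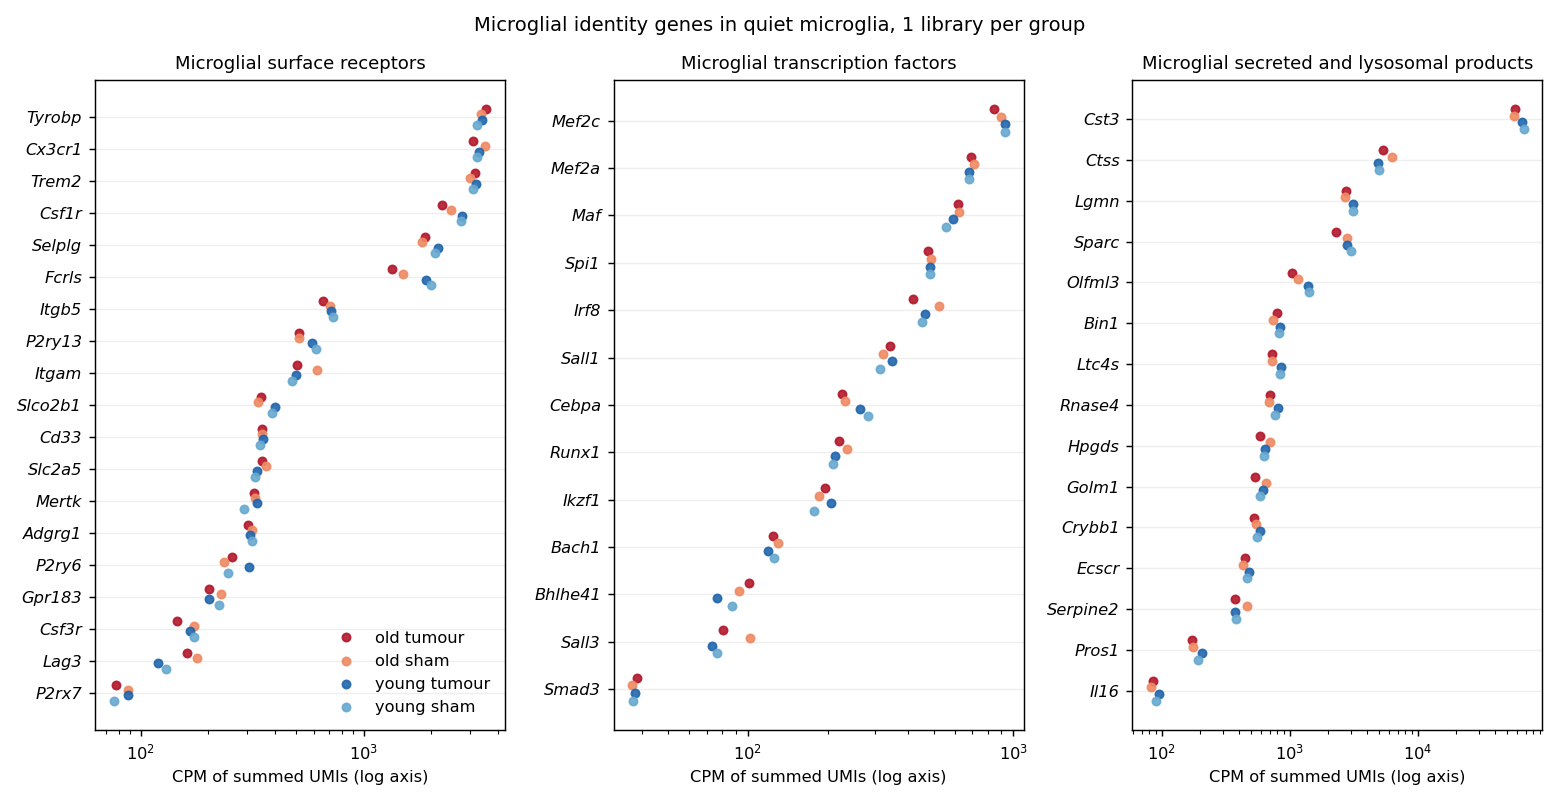
Each panel plots microglial identity genes outside the rule, leaving out those not reported here, as CPM of summed UMIs on a log axis, 1 point per library, coloured by group. The 4 points of each gene lie close together, and every gene shown stayed within 1.5-fold between its highest and lowest library.

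Markers of other cell types were not absent. Choroid plexus aside, the highest sums were those of oligodendrocytes, endothelium and astrocytes. Oligodendrocyte markers summed to 1072 CPM in old tumour, 1348 in old sham, 948 in young tumour and 930 in young sham. Endothelial markers summed to 704, 540, 654 and 820 CPM in that order, and astrocyte markers to 402, 375, 487 and 488 CPM. Each sum was below that of the barcodes with 0 UMIs of the 4 rule markers in its library. The marker lists of border-associated macrophages, the resident macrophages of the meninges and perivascular spaces, summed to 82.4 CPM in old tumour, 104 in old sham, 46.4 in young tumour and 45.4 in young sham, with all 8 markers detected. Markers of T cells summed to 1.38 CPM in old tumour, 11.8 in old sham, 35.3 in young tumour and 0.420 in young sham, with Cd3d, Cd3e and Trac at 0 UMIs in old tumour and in young sham. Neutrophil markers summed to 22.3 CPM in old tumour, 9.68 in old sham, 283 in young tumour and 47.1 in young sham, with 5, 4, 8 and 7 of the 8 detected. Young tumour thus had the highest sums of T cell, natural killer cell and neutrophil markers, and of monocyte markers, at 51.0 CPM against 14.6 in old tumour, 27.7 in old sham and 30.5 in young sham. For neutrophils the rest of the library did not follow. Barcodes with 0 UMIs of the rule markers held 3447 CPM in old tumour, 1514 in old sham, 516 in young tumour and 6303 in young sham. The microglia left out held 472, 129, 49.6 and 774 CPM in that order. In those barcodes without rule markers, young tumour was highest for the other 3 lists.

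Some member barcodes also held RNA of other cell types. Markers of another type took more than 1% of the UMIs in 15 members in old tumour, 3 in old sham, 17 in young tumour and 30 in young sham. Choroid plexus markers did so in 8, 1, 8 and 25 of them in that order of groups, and these few barcodes held 90.6%, 0.709%, 50.3% and 94.8% of all Ttr UMIs of the members. Ttr, transthyretin of the choroid plexus, stood at 7709 CPM in old tumour, 683 in old sham, 1999 in young tumour and 12611 in young sham. Without the mixed barcodes it stood at 751, 679, 1004 and 693 CPM in that order. Its ratios between libraries rest on those barcodes. A second small set was found after the values were seen, namely members in which Apoe, the lipid carrier, took at least 2% of UMIs. There were 12 in old tumour, 9 in old sham, 9 in young tumour and 11 in young sham. They held 44.5%, 63.6%, 35.3% and 30.6% of Apoe UMIs. They carried the border-associated macrophage markers Pf4 at 1137, 1481, 1316 and 1613 CPM and Mrc1 at 937, 1077, 503 and 1512 CPM, against 1.954 to 3.94 and 2.82 to 10.4 CPM in the remaining members. Their rule marker sums, 2258 to 2973 CPM, were below the 6718 to 7785 CPM of the rest, so the label of microglia fits these few barcodes less well than the others.

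**Figure D3:**
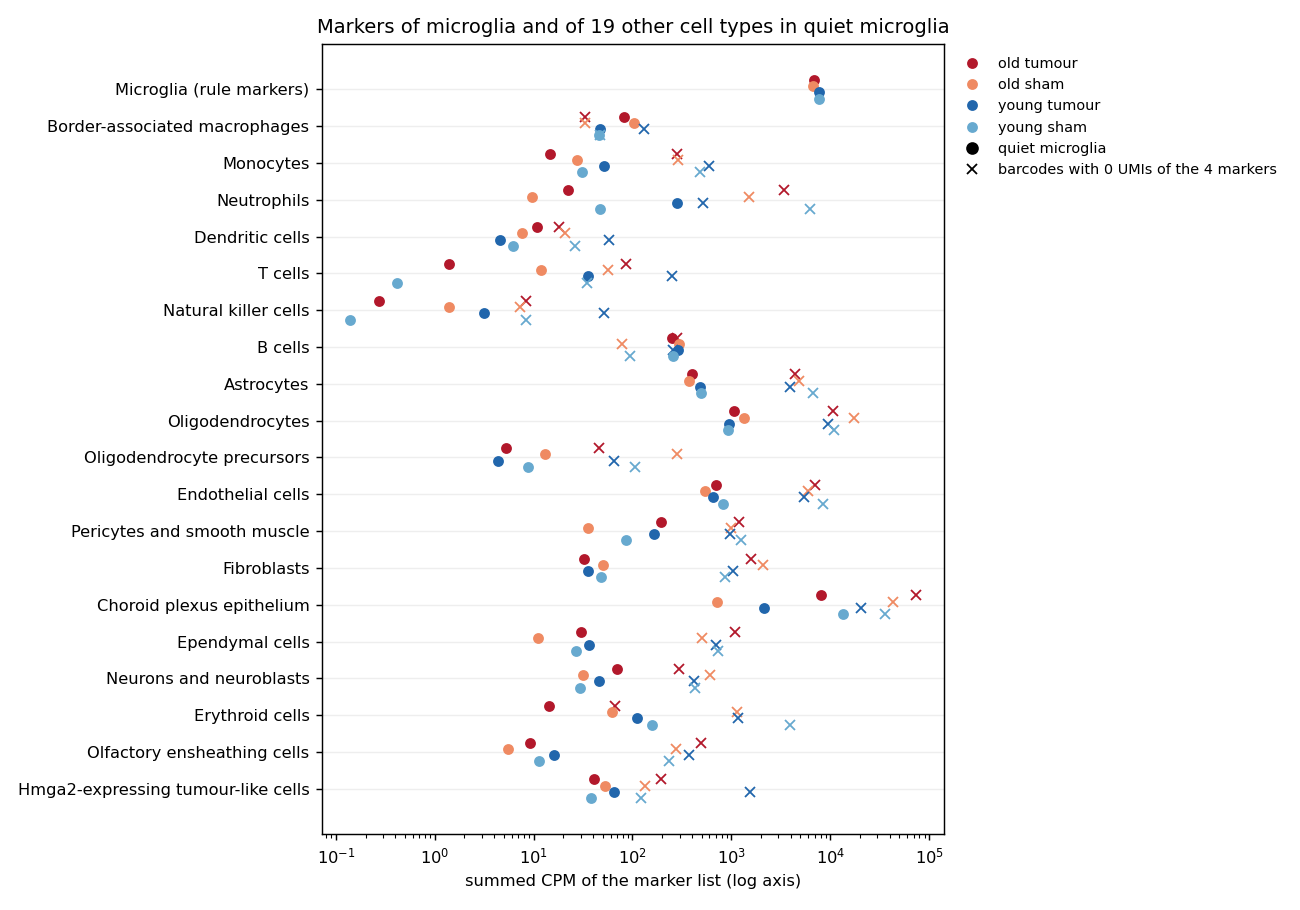
Summed CPM of each marker list on a log axis, with filled circles for quiet microglia and crosses for barcodes with 0 UMIs of the 4 rule markers, coloured by library. Microglial markers exceed every other list except choroid plexus in old tumour and young sham. The choroid plexus sums (8048 CPM in old tumour, 714 in old sham, 2143 in young tumour, 13465 in young sham) hold the Ttr of a few mixed barcodes.

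With a tumour on the other side, quiet microglia held fewer transcripts of immediate early genes at both ages. These genes, among them Fos, Jun, Egr1 and Atf3, encode transcription factors and feedback regulators that cells switch on within minutes of many stimuli. Of 23 measured, 17 fell in old tumour against old sham and 15 fell in young tumour against young sham, and none rose in either. The median log2 ratio was -1.13 in old and -0.72 in young mice, beside -0.04 and 0.05 over all genes. At both ages 13 of the 23 fell (56.5%), against 45 of 8715 genes (0.516%), and 22 of the 23 lay below 0 in both comparisons.

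Atf3, a stress-induced factor at chr1:191170296-191218039 (minus strand), had 214 CPM in old tumour against 759 in old sham, and 242 in young tumour against 636 in young sham. The ratios were 0.283 (0.258 to 0.310) in old and 0.380 (0.354 to 0.407) in young mice, and both tumour libraries lay below both sham libraries. Egr1, an early growth response factor, had 294 CPM in old tumour against 840.3 in old sham, and 305 in young tumour against 613 in young sham, with ratios of 0.350 (0.322 to 0.380) and 0.498 (0.468 to 0.531). Fos, a subunit of the AP-1 factor, had 633 CPM in old tumour against 1506 in old sham, and 873 in young tumour against 1607 in young sham, with ratios of 0.420 (0.396 to 0.446) and 0.543 (0.523 to 0.564). Its partner Jun had 2131 CPM in old tumour against 4157 in old sham, and 2596 in young tumour against 3962 in young sham, with ratios of 0.513 (0.495 to 0.530) and 0.655 (0.641 to 0.670). For each of these 4 genes both tumour libraries lay below both sham libraries. Ier2 and Ier3, small early response regulators, followed the same order within each age, as Ier2 had 205 CPM in old tumour against 432 in old sham, and 161 in young tumour against 332 in young sham. Ier3 had 95.4 CPM in old tumour against 208 in old sham, and 39.2 in young tumour against 119 in young sham. Ppp1r15a, which restores translation after stress, fell to 56.8 CPM in old tumour, against 156 in old sham, and to 42.3 in young tumour, against 87.0 in young sham. Klf2, a Kruppel-like factor, differed in its pattern, at 251 CPM in old tumour against 356 in old sham, and 299 in young tumour against 822 in young sham. Its ratios were 0.706 (0.633 to 0.788) in old and 0.363 (0.342 to 0.387) in young mice, so that young sham alone was high. Barcodes with 0 UMIs of the 4 rule markers held Klf2 at 485 CPM in old tumour, 631 in old sham, 437 in young tumour and 481 in young sham. Quiet microglia thus held less of it than those barcodes in every library except young sham.

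The fall was also seen as fewer cells with a transcript. After thinning to 2000 UMIs, Fos was detected in 21.9% of members in old tumour, 37.7% in old sham, 29.4% in young tumour and 38.7% in young sham. Atf3 was detected in 13.1%, 30.1%, 17.2% and 29.0% in that order of groups. In the comparison barcodes that held 0 UMIs of the 4 rule markers, thinned alike, Fos was detected in 12.4% in old tumour, 29.9% in old sham, 12.2% in young tumour and 11.1% in young sham. Atf3 was found there in 2.52%, 5.77%, 3.95% and 2.92%. In old mice the other barcodes thus also held fewer such transcripts with tumour than in sham, while in young mice their Fos level was 186 CPM with tumour against 190.5 in sham. The microglia left out by the rule showed the fall too, so it was not particular to quiet cells. Their CPM summed over the immediate early list was 21343 in old tumour against 38034.5 in old sham. In young mice it was 12910.5 with tumour against 32975 in sham. In quiet microglia these sums were 11776 against 20138 in old mice and 14079 against 21536 in young mice. The part of free RNA in the fall within quiet microglia was not tested.

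More inflammatory genes outside the rule fell than rose with tumour at each age. Of 25 measured, 14 fell and 1 rose in old tumour against old sham, and 7 fell and 2 rose in young tumour against young sham. The medians were -1.04 and -0.21, beside -0.04 and 0.05 over all genes. The 2 that rose in young tumour were the chemokine genes Ccl7 and Cxcl10, both below 10 CPM in the young libraries. For Ccl7 the young UMIs were equally few with and without tumour, so its rise came from the library totals alone. At both ages 7 of the 25 fell (28.0%), against 0.516% of all genes. Ccl3 and Ccl4 encode chemokines that draw T cells and monocytes. Ccl3 (chr11:83647844-83649355, minus strand) had 269.6 CPM in old tumour against 557 in old sham, and 154 in young tumour against 312 in young sham, with ratios of 0.484 (0.440 to 0.532) and 0.495 (0.452 to 0.541). Ccl4 had 388 CPM in old tumour against 811 in old sham, and 271 in young tumour against 528 in young sham, with ratios of 0.478 (0.442 to 0.517) and 0.512 (0.479 to 0.548). Both genes thus fell to about the same fraction of their sham level at the 2 ages. Ccl4 was detected in 12.2% of thinned members in old tumour, 31.3% in old sham, 9.89% in young tumour and 15.7% in young sham, against 1.74%, 4.80%, 3.52% and 1.43% of barcodes without the rule markers.

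Of the inflammatory list, 4 further genes are given as examples chosen after their values were seen, and each was highest in old sham. Nfkbia, the inhibitor IkappaB-alpha, which NF-kappaB induces and which restrains it, at chr12:55489410-55492647 (minus strand), had 227 CPM in old tumour, 669 in old sham, 249 in young tumour and 331 in young sham. Its ratio was 0.339 (0.308 to 0.372) for old tumour over old sham but 0.754 (0.700 to 0.811) for young tumour over young sham, where it did not pass 1.5-fold. Nfkbiz, a nuclear IkappaB protein, had 32.8 CPM in old tumour, 126 in old sham, 27.8 in young tumour and 60.2 in young sham. It fell at both ages, with ratios of 0.261 (0.205 to 0.330) and 0.462 (0.373 to 0.569). Cd83, a surface protein of activated antigen-presenting cells, had 97.6 CPM in old tumour, 261 in old sham, 93.3 in young tumour and 148 in young sham. The adhesion molecule Icam1 had 87.1 CPM in old tumour, 198 in old sham, 80.8 in young tumour and 114 in young sham. For these 4 genes the tumour libraries of both ages lay near each other. Members had been chosen to hold no Tnf, Il1a or Il1b, and the microglia left out held more Ccl4 in every library, at 1717 CPM in old tumour, 3832 in old sham, 550.2 in young tumour and 1517 in young sham.

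MHC class I genes encode molecules that present peptides to CD8 T cells. Of 14 measured, 6 rose and none fell in young tumour against young sham, with a median of 0.45, whereas in old tumour against old sham none rose and 1 fell, with a median of 0.04. Over all genes 2.12% rose and 2.47% fell in young mice, and 5.37% rose and 5.45% fell in old mice. H2-K1 (chr17:33996017-34000347, minus strand), which encodes the heavy chain of the H-2K molecule, had 453 CPM in old tumour, 452 in old sham, 592 in young tumour and 305 in young sham. The ratio was 1.94 (1.83 to 2.05) in young and 1.003 (0.915 to 1.10) in old mice, with young sham as the only low library. H2-D1, the heavy chain of H-2D, had 729 CPM in old tumour, 665 in old sham, 853 in young tumour and 438 in young sham, with ratios of 1.95 (1.85 to 2.04) in young and 1.10 (1.02 to 1.18) in old mice. B2m, the shared light chain, had 2009 CPM in old tumour, 1894 in old sham, 1825 in young tumour and 1546 in young sham. A ratio of 1.18 (1.15 to 1.22) in young mice did not pass 1.5-fold. H2-Q7, a nonclassical gene, had 17.1 CPM in old tumour, 18.0 in old sham, 47.4 in young tumour and 4.06 in young sham, a ratio of 11.7 (7.87 to 17.9) in young mice.

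The rest of the young tumour library moved with these values. In barcodes without the rule markers, H2-K1 stood at 327 CPM in old tumour, 254 in old sham, 1040.3 in young tumour and 196 in young sham. H2-D1 stood there at 422, 361, 1061 and 327 CPM in that order. In young tumour both genes were therefore lower in quiet microglia than in those other barcodes, and in the other 3 libraries higher. H2-Q7 was lower in quiet microglia than in those barcodes in all 4 libraries (56.1 CPM in old tumour, 34.2 in old sham, 201 in young tumour and 10.8 in young sham). No expression by members is read from H2-Q7. Members of the H2-Q family are near-identical in sequence, and counting could split reads between them. H2-M3, a class I gene that presents formylated peptides, was above the other barcodes in every library, at 81.3 CPM in old tumour, 64.3 in old sham, 90.7 in young tumour and 55.7 in young sham. The other barcodes held 14.4, 13.48, 31.4 and 12.3 CPM in that order, and H2-M3 rose in young tumour with a ratio of 1.63 (1.41 to 1.88). The part of free RNA in the class I values was not tested.

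Promoters of 3 class I heavy chains and of B2m are printed because these genes encode the chains of class I molecules and their promoters hold matches to a shared motif, the binding sequence of NF-kappaB. The strands run 5′ to 3′ in the direction of transcription, from RefSeq on GRCm38.p6: H2-K1 from chr17:34000359-34000478 (minus strand), H2-D1 from chr17:35262903-35263022 (plus), H2-Q7 from chr17:35439002-35439121 (plus) and B2m from chr2:122147528-122147647 (plus). Capitals mark the NF-kappaB motif, and in B2m the first run of capitals marks the interferon-stimulated response element (ISRE), searched as GAAANNGAAA, and the second the NF-kappaB motif.
H2-K1: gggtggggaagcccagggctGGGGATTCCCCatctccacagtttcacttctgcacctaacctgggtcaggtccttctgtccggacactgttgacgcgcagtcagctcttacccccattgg
H2-D1: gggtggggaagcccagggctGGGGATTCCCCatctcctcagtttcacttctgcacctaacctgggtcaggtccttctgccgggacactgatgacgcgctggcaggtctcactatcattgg
H2-Q7: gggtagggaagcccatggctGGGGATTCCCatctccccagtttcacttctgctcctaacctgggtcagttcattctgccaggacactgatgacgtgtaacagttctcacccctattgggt
B2m: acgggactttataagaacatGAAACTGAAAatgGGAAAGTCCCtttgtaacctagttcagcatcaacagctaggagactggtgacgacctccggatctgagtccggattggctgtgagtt
Both motifs were searched on both strands of the 250 bases before each start. The NF-kappaB motif was present in 8 of the 13 class I genes with a promoter sequence (61.5%) and in 9 of 16 inflammatory genes (56.3%), against 1204 of 27025 promoters overall (4.46%). It was present in 3 of 19 immediate early genes (15.8%). The ISRE was present in 12 of 23 interferon-induced genes (52.2%) and 3 of 13 class I genes (23.1%), against 936 of the 27025 (3.46%). A match describes the letters of the promoter and does not show that a factor was bound. The ISRE search took only GAAANNGAAA, so a variant of the element would be missed and its absence is not shown.

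Of 11 measured glucocorticoid-induced genes, 3 rose and none fell in young tumour against young sham, with a median of 0.23, while 1 rose and 1 fell in old tumour against old sham, with a median of 0.02. Among all genes 2.12% rose and 2.47% fell in young mice, and 5.37% rose and 5.45% fell in old mice. Fkbp5, a chaperone partner of the glucocorticoid receptor, had 61.2 CPM in old tumour, 61.6 in old sham, 103 in young tumour and 44.4 in young sham, a ratio of 2.31 (1.99 to 2.68) in young and 0.994 (0.774 to 1.29) in old mice. Tsc22d3, which encodes the glucocorticoid-induced leucine zipper, had 80.5 CPM in old tumour, 97.5 in old sham, 222 in young tumour and 109 in young sham, a ratio of 2.03 (1.85 to 2.24) in young and 0.825 (0.673 to 1.02) in old mice. Ddit4, an inhibitor of mTOR signalling, had 14.3 CPM in old tumour, 11.1 in old sham, 58.0 in young tumour and 16.4 in young sham, a ratio of 3.54 (2.83 to 4.46) in young mice. In each case young tumour alone was high. In barcodes without the rule markers, Fkbp5 stood at 21.3 CPM in young tumour against 8.74 in young sham. Ddit4 stood there at 74.9 CPM in young tumour against 72.5 in young sham, and was higher there than in quiet microglia in each of these libraries.

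Of 28 measured interferon-induced genes outside the rule, 6 rose and none fell in young tumour against young sham, with a median of 0.29, and 2 rose and 2 fell in old tumour against old sham, with a median of 0.02. The old counts lay near the shares over all genes, 5.37% higher and 5.45% lower, while 2.12% of all genes rose in young mice. Ifi27l2a, an interferon-induced protein, had 58.2 CPM in old tumour, 56.0 in old sham, 30.7 in young tumour and 16.9 in young sham. The level in barcodes without the rule markers was higher, at 95.6, 88.5, 227 and 30.0 CPM in that order of groups. Ifi204, of the interferon-induced family of DNA sensors, rose at both ages, with 14.9 CPM in old tumour against 8.99 in old sham, and 8.70 in young tumour against 3.64 in young sham. Cd74, the invariant chain of MHC class II and not a gene of the rule, had 25.4 CPM in old tumour, 29.7 in old sham, 79.1 in young tumour and 20.6 in young sham, a ratio of 3.84 (3.15 to 4.70) in young mice, and in barcodes without the rule markers 205, 303, 2012 and 306 CPM. Its level in members was thus below that of the other cells in each library.

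Among heat shock proteins, 6 of 16 fell in young tumour against young sham and 3 fell and 1 rose in old tumour against old sham. The shares over all genes were 2.47% lower in young mice, and 5.45% lower and 5.37% higher in old mice. The inducible chaperones Hspa1a and Hspa1b, near-identical neighbours between which reads may be split, stood apart in young sham. Hspa1a stood at 53.8 CPM in old tumour, 86.4 in old sham, 50.5 in young tumour and 260.2 in young sham. Hspa1b stood at 78.6 CPM in old tumour, 100.3 in old sham, 73.3 in young tumour and 283 in young sham. Their ratios in young mice were 0.194 (0.168 to 0.224) and 0.259 (0.229 to 0.292). In young mice the split over all genes was 185 higher and 215 lower with tumour, and it became 217 and 143 when the CPM of single members were averaged, and 182 and 111 without the mixed barcodes. Few genes rose at both ages with tumour, 31 of 8715, none of which belonged to the identity, immediate early or inflammatory lists. Eed, a subunit of the Polycomb repressive complex, was among the 12 named by rank and stood at 47.7 CPM in old tumour against 32.5 in old sham, and 55.1 in young tumour against 38.7 in young sham, short of 1.5-fold at each age. Tnfsf13b, the B cell survival factor BAFF, stood at 71.7 CPM in old tumour against 51.2 in old sham, and 22.2 in young tumour against 16.2 in young sham, with ratios of 1.40 (1.08 to 1.84) and 1.37 (1.0301 to 1.82), also short of it.

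**Figure D4:**
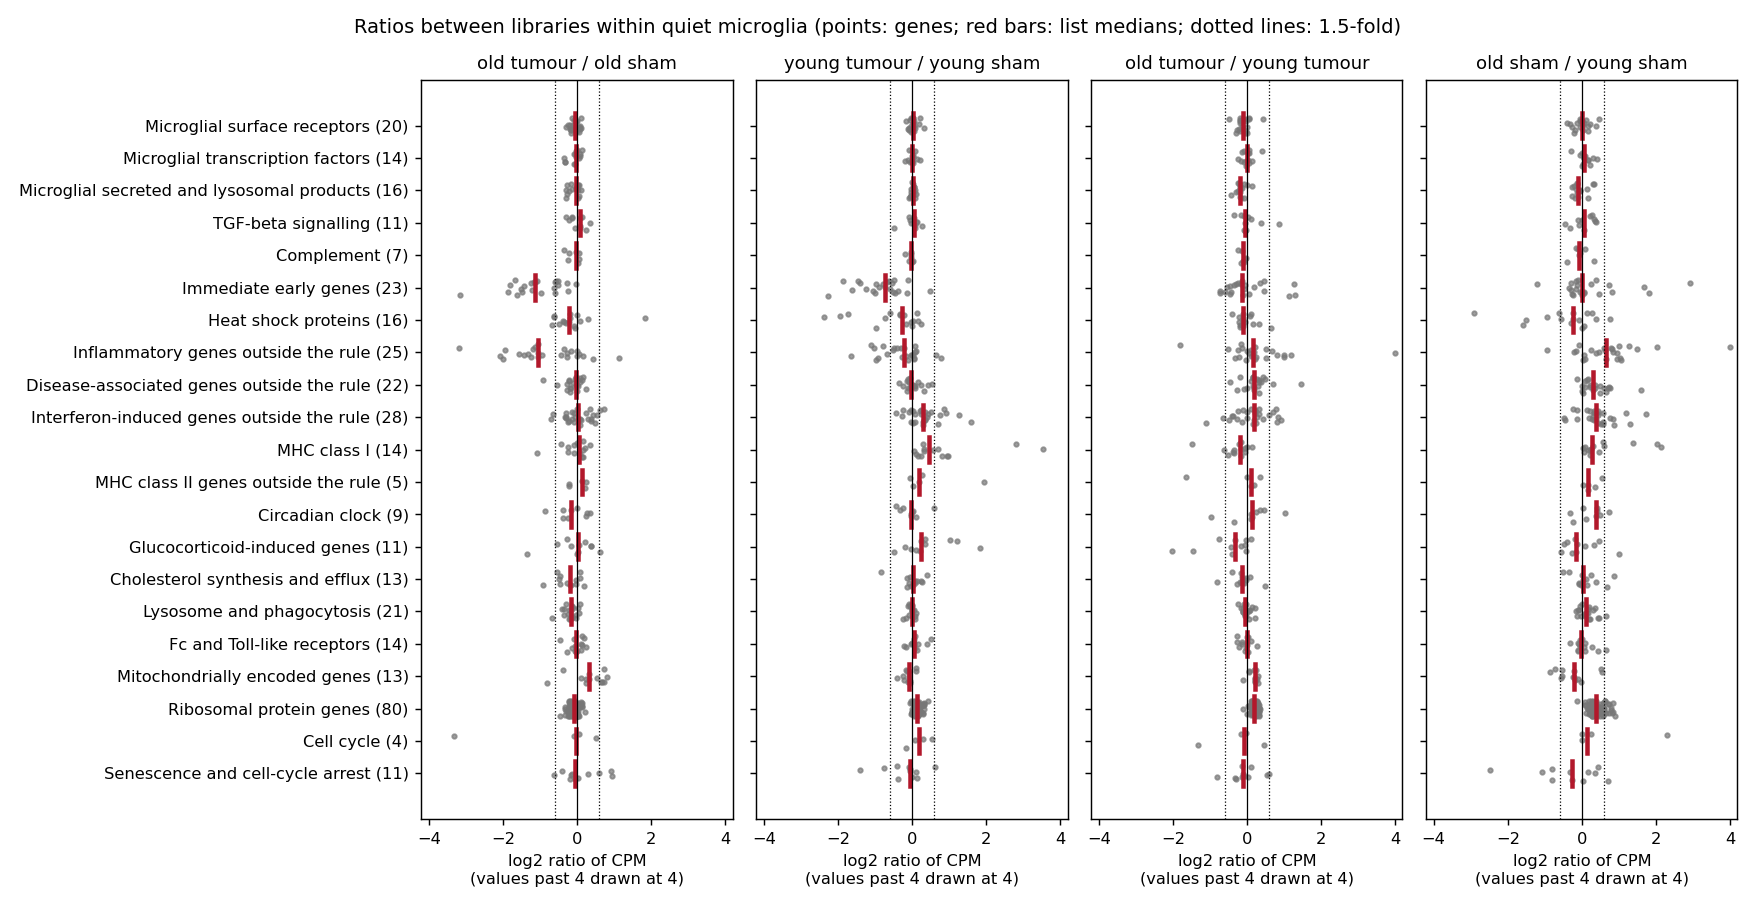
Log2 ratios of CPM between libraries for the genes of 21 lists (grey points), with the list median as a red bar and 1.5-fold as dotted lines, 1 panel per comparison, values past 4 being drawn at 4. Immediate early genes lie mostly left of 0 in both tumour panels (medians -1.13 and -0.72), the median of inflammatory genes lies left of 0 in old tumour over old sham (-1.04) and right of 0 in old over young sham (0.66), and identity lists stay inside the dotted lines.

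A small set of genes differed between the old and young libraries of quiet microglia alike in tumour and sham. Of 8715 genes, 101 rose (1.16%) and 49 fell in both age comparisons. Crlf2, the receptor subunit for the cytokine TSLP (chr5:109554709-109558993, minus strand), had 226 CPM in old tumour against 57.3 in young tumour, and 225 in old sham against 51.8 in young sham. Its ratios were 3.95 (3.41 to 4.58) with tumour and 4.34 (3.73 to 5.05) in sham, and the 2 old libraries agreed within counting error. Naalad2, a peptidase of the family of glutamate carboxypeptidase II (chr9:18321951-18402995, minus strand), had 79.7 CPM in old tumour against 19.1 in young tumour, and 64.3 in old sham against 13.9 in young sham, with ratios of 4.17 (3.24 to 5.42) and 4.64 (3.46 to 6.22). Tnfsf13b had 71.7 CPM in old tumour against 22.2 in young tumour, and 51.2 in old sham against 16.2 in young sham, with ratios of 3.22 (2.53 to 4.13) and 3.15 (2.32 to 4.25). For each of these 3 genes both old libraries lay above both young libraries.

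Further genes of the same pattern were Upk1b, a tetraspanin, at 130.1 CPM in old tumour against 60.0 in young tumour, and 154 in old sham against 53.9 in young sham. Klk8, a secreted serine protease also called neuropsin, had 283 CPM in old tumour against 149 in young tumour, and 246 in old sham against 141 in young sham. Mlph, a linker of vesicles to myosin, had 92.1 CPM in old tumour against 49.1 in young tumour, and 98.2 in old sham against 35.3 in young sham. Col6a3, a collagen chain, had 20.95 CPM in old tumour against 6.29 in young tumour, and 36.7 in old sham against 7.28 in young sham. Ccl3 was also among the 12 with the largest shared rise, with ratios of 1.75 (1.58 to 1.93) with tumour and 1.79 (1.65 to 1.94) in sham. Crlf2 and Naalad2 were not particular to quiet cells in level, since the microglia left out by the rule held 238 and 71.2 CPM in old tumour, 233 and 62.8 in old sham, 79.7 and 14.97 in young tumour and 59.5 and 15.7 in young sham. Nor was the age pattern of Tnfsf13b, Upk1b, Klk8, Mlph, Col6a3 and Ccl3. In the microglia left out, both old libraries also lay above both young libraries for each of them. Tnfsf13b had 69.3 CPM there in old tumour, 62.6 in old sham, 33.9 in young tumour and 22.5 in young sham.

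Lower with age was Gp9, a platelet glycoprotein gene, at 29.2 CPM in old tumour against 60.5 in young tumour, and 33.2 in old sham against 57.6 in young sham. Tmem176a, a membrane protein gene, had 235 CPM in old tumour against 362 in young tumour, and 258 in old sham against 393 in young sham. The ratios of Tmem176a were 0.650 (0.596 to 0.707) with tumour and 0.656 (0.587 to 0.731) in sham. Cd79b, a signalling chain of the B cell receptor, stood at 30.9 CPM in old tumour against 48.6 in young tumour, and 27.0 in old sham against 43.4 in young sham. The histone gene Hist1h1d had 90.7 CPM in old tumour against 164 in young tumour, and 38.04 in old sham against 116 in young sham. The histone gene Hist1h2ac had 38.9 CPM in old tumour against 68.2 in young tumour, and 13.1 in old sham against 50.1 in young sham, and old sham was the lowest library for both. Histone copies are near-identical, and reads may be split between them. Ccl9, a chemokine of myeloid cells, stood at 98.1 CPM in old tumour against 140.2 in young tumour, and 73.3 in old sham against 142 in young sham. It passed 1.5-fold in sham only, where its ratio was 0.517 (0.419 to 0.632).

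In the inflammatory, disease-associated, MHC class I and ribosomal protein lists, more genes passed 1.5-fold with age in sham than with tumour. The same held over all genes, of which 12.9% passed it in sham and 5.84% with tumour. The direction is therefore not particular to these lists. Among interferon-induced genes 6 of 28 rose and none fell with age in sham, while 6 rose and 2 fell with tumour. Inflammatory genes rose in 15 of 25 and fell in 1 in old sham against young sham, with a median of 0.66, and rose in 6 and fell in 1 in old tumour against young tumour, with a median of 0.17. In both comparisons 5 rose (20%), against 1.16% of all genes. Nfkbia had a ratio of 2.02 (1.88 to 2.18) in sham and 0.910 (0.829 to 0.998) with tumour, and Cd83 had 1.77 (1.57 to 1.99) and 1.05 (0.903 to 1.21). Disease-associated genes outside the rule rose in 6 of 22 in sham and in 2 of 22 with tumour, with medians of 0.29 and 0.19, and none fell. Lyz2, lysozyme, rose in both, at 525 CPM in old tumour against 324 in young tumour, and 599 in old sham against 358 in young sham. So did Cd22, an inhibitory sialic acid receptor that restrains uptake by microglia in aged mice, at 12.7 CPM in old tumour against 4.59 in young tumour, and 13.1 in old sham against 4.34 in young sham. Apoe had 1924 CPM in old tumour against 1436 in young tumour, and 1943 in old sham against 1140.1 in young sham. Without the Apoe-rich members described above it stood at 1088 CPM in old tumour, 722 in old sham, 939 in young tumour and 795 in young sham, lower in old than in young sham.

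For the counts that follow, 7.34% of all genes rose and 5.57% fell in old sham against young sham. In old tumour 3.40% rose and 2.44% fell against young tumour, and 5.37% rose and 5.45% fell against old sham. MHC class I genes rose in 4 of 14 in old sham against young sham, with a median of 0.27, and fell in 2 of 14 in old tumour against young tumour, with a median of -0.20. H2-D1 had a ratio of 1.52 (1.41 to 1.63) in sham and 0.855 (0.813 to 0.899) with tumour. Ribosomal protein genes rose in 15 of 80 in old sham against young sham, with a median of 0.39, and in none of the 80 in old tumour against young tumour, with a median of 0.18. Mitochondrially encoded genes (13) fell in 2 in old sham against young sham, with a median of -0.22, and rose in 5 and fell in 1 in old tumour against old sham, with a median of 0.33. An example is mt-Co3, a cytochrome oxidase subunit, at 5645 CPM in old tumour, 3421 in old sham, 4802 in young tumour and 4984 in young sham. Old sham was the lowest library for it and also for the median mitochondrial share of its members, at 1.62% against 2.45% in old tumour, 2.08% in young tumour and 1.9604% in young sham. The whole contrast of old sham with young sham shifts with the scaling, since centring the ratios on their median (0.06) gave 478 higher and 587 lower genes in place of 640 and 485.

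Of 11 measured senescence and cell-cycle arrest genes, 1 rose and 4 fell in old sham against young sham, and 4 (36.4%) stayed within 1.5-fold over all 4 libraries, against 77.0% of all genes. In old tumour 2 rose and 1 fell against old sham, and 1 rose and 1 fell against young tumour, while 1 rose and 2 fell in young tumour against young sham. Over all genes 7.34% rose and 5.57% fell in old sham against young sham, and 5.37% and 5.45% in old tumour against old sham. The shares were 3.40% and 2.44% for old over young tumour, and 2.12% and 2.47% for young tumour over young sham. Single calls among 11 genes are therefore not read as a result. Those lower in old sham than in young sham were the inhibitors of cyclin-dependent kinases Cdkn2c, Cdkn2d and Cdkn1c and the cyclin gene Ccnd2. Cdkn2c stood at 6.62 CPM in old tumour, 6.92 in old sham, 11.6 in young tumour and 12.04 in young sham. Cdkn2d stood at 12.7 CPM in old tumour, 10.4 in old sham, 13.8 in young tumour and 18.1 in young sham. All 4 genes were lower in quiet microglia than in barcodes without the rule markers in each library, and old sham held only 5 Ccnd2 UMIs. Lmnb1, a nuclear lamina gene, was higher in old sham, at 12.7 CPM in old tumour, 14.5 in old sham, 8.70 in young tumour and 8.96 in young sham.

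In the order old tumour over old sham, young tumour over young sham, old over young tumour and old over young sham, circadian clock genes (9 measured) had medians of -0.16, -0.02, 0.15 and 0.38, cholesterol genes (13) -0.19, 0.02, -0.12 and 0.03, and senescence and cell-cycle arrest genes (11) -0.06, -0.05, -0.12 and -0.27. Cell cycle genes were mostly too low to measure, with 4 of 18 counted. The MHC class II list outside the rule had 5 measured genes, of which Cd74 alone passed 1.5-fold, in the 2 comparisons with young tumour.

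**Figure D5:**
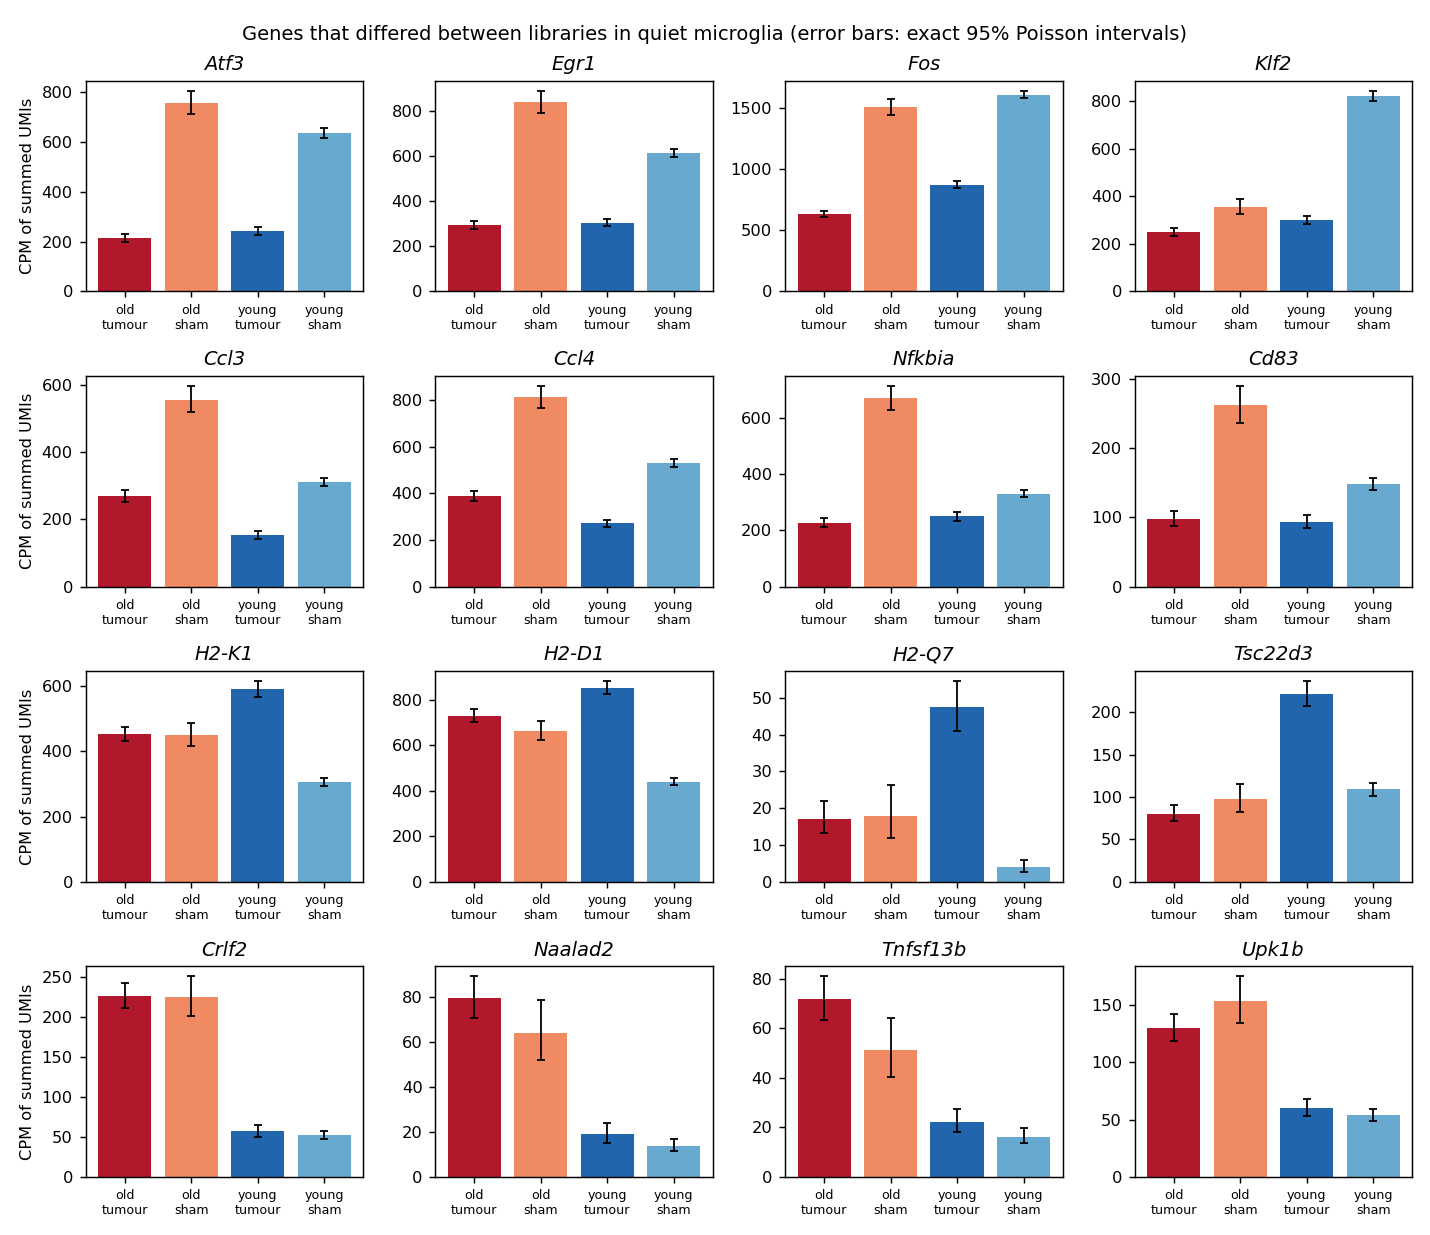
CPM of summed UMIs for 16 genes in quiet microglia, 1 bar per library with exact 95% Poisson intervals. Atf3, Egr1, Fos, Ccl3 and Ccl4 are lower in each tumour library than in its sham, H2-K1 and H2-D1 are lowest in young sham, Tsc22d3 is highest in young tumour (222 CPM), and Crlf2, Naalad2, Tnfsf13b and Upk1b are higher in both old libraries.

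Quiet microglia were not uniform. In cells thinned to 2000 UMIs, the variance of a gene's UMIs over their mean is 1 when cells differ by counting alone. The median gene had 0.981 as its lowest ratio over the 4 libraries, and 80 of 4707 genes exceeded 1.5 in every library. Apoe led, at 51.9 in old tumour, 74.1 in old sham, 39.8 in young tumour and 55.8 in young sham. Between 30.6% and 63.6% of its UMIs lay in the few Apoe-rich barcodes described above. Cst3 followed, at 14.6, 17.5, 12.9 and 14.3 in that order of groups, then Ccl4, at 16.9, 13.8, 12.6 and 17.5, and Fos, at 11.5, 14.3, 9.91 and 12.1. Of the 15 leading genes, the others were the immediate early genes and feedback regulators Jun, Jund, Junb, Atf3, Klf2, Btg2, Zfp36 and Egr1, the chemokine gene Ccl3, the nuclear RNA Malat1 and the histone gene H3f3b. Several genes that fell with tumour, such as Fos, Atf3 and Ccl4, were therefore also among those that differed most between cells of 1 library. By contrast the identity gene Cx3cr1 had 1.93, 1.94, 1.64 and 1.60, and was detected in 98.8%, 98.5%, 99.1% and 99.3% of thinned members.

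Set beside the microglia that failed an activation limit, a contrast that the rule itself made and that is given as a description, quiet cells had higher CPM in all 4 libraries for 18 of the 20 surface receptors, 15 of the 16 secreted products and 8 of the 14 transcription factors. They had lower CPM in all 4 libraries for 15 of 23 immediate early genes, 19 of 25 inflammatory genes, 14 of 22 disease-associated genes, 12 of 14 class I genes and 79 of 80 ribosomal protein genes. Over all 8715 genes, 3186 were higher and 748 lower in each library. The microglia left out held Cx3cr1 at 2435 CPM in old tumour, 2719.9 in old sham, 2018 in young tumour and 2857 in young sham, below the quiet cells of each library. They held Jun at 3310.4 CPM in old tumour, 6646 in old sham, 2043 in young tumour and 5414 in young sham, above the quiet cells of each library except young tumour.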

How the data were processed

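Droplet 3′ libraries (10x Genomics, version 3 chemistry) were analysed from 4 samples, 1 per group, grouped by the age and injection in the labels. The authors deposited raw counts for 32285 genes, each value being the number of UMIs of a gene in a barcode, with no normalization. The submitters' processing notes name Cell Ranger 3.0.2, Seurat 2.3.4 and the build mm10, while the matrix headers name Cell Ranger 6.1.0, and this difference was not resolved. The last digit of the strain field differs between samples, so the strain of the design text was used. Whether a library pooled mice is not given in the sources used here.

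Barcodes were filtered and members chosen by the rule given in the report. UMIs of the members were added up within a library and scaled to that library's member total (CPM). Genes with 10 CPM or more in 1 library were counted, and a ratio of 1.5 or more in either direction was the threshold. A count of 0 was replaced by 3 counts. Ratios carry exact conditional Poisson intervals and shares exact Clopper-Pearson intervals at 95%, for counting error only. Comparison barcodes are kept barcodes with 0 UMIs of the 4 rule markers. The members, the 21 gene lists and the 20 cell type marker lists were chosen with earlier results of these data known. Named genes had 100 or more UMIs in all and 20 CPM or more in 1 library and were at least as high in members as in the comparison barcodes. The 12 highest and 12 lowest by the smaller of the 2 log2 ratios were taken for age and for tumour, and 5 each way for the difference of the tumour ratios between ages. Genes of the lists, of the rule, of the 20 highest mean CPM and the 15 most variable were also named, and within these the text picks examples after their values were seen. Lists without a gene-level account in the text are given by their medians, and some list members that enter the counts and medians are not reported here by name.

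Doublet scores came from Scrublet in scanpy 1.11.5, applied as an alternative at 0.8% per 1000 barcodes. Positions are from GENCODE release 21 (GRCm38), in which 32158 identifiers were found, and promoters from RefSeq (GRCm38.p6). The ratio procedure was tested on simulated data. Alternatives were a stricter filter, thinning, doublet removal, 10 marker UMIs, shared barcodes left out, other scalings and other gene filters, and 3 chosen after seeing the data, namely leaving out mixed barcodes, members with at least 4000 UMIs, and totals without Gm42418, Malat1 and Ttr. Calculations used Python 3.11.15, numpy 2.4.6, pandas 2.3.3 and scipy 1.17.1.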

Additional observations from a re-analysis of the deposited data

Results flagged for a closer look

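For 16 genes the tumour ratio pointed past 1.5-fold one way in old mice and the other way in young mice, or the age ratio did so between tumour and sham. With 1 library per group the difference was not tested. It is given as the log2 of the old tumour to old sham ratio over the young tumour to young sham ratio, which is the same quantity for both kinds of contrast.

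The largest was Ttr, at 6.15 for tumour and for age, and its UMIs lay mostly in the mixed choroid plexus barcodes given in the report. Hspb1, a small heat shock protein, gave 3.56 for both, at 19.6 CPM in old tumour, 5.53 in old sham, 12.6 in young tumour and 42.0 in young sham, below its level in the comparison barcodes. Cdkn1c, a cyclin-dependent kinase inhibitor, gave 1.68 for both, at 55.1 CPM in old tumour, 29.0 in old sham, 36.3 in young tumour and 61.1 in young sham. Mid1, a ubiquitin ligase gene, gave 2.81 for tumour, at 18.7 CPM in old tumour, 4.15 in old sham, 16.9 in young tumour and 26.3 in young sham. Ccnd2, cyclin D2, gave 2.35, at 6.62 CPM in old tumour, 3.46 in old sham, 7.25 in young tumour and 19.3 in young sham. The histone gene Hist1h4i gave 1.88, at 33.1 CPM in old tumour, 17.3 in old sham, 26.8 in young tumour and 51.7 in young sham. For these, old tumour was above old sham and young tumour below young sham.

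In the other direction, Cxcl10, an interferon-induced chemokine, gave -3.84 for both, at 2.21 CPM in old tumour, 20.1 in old sham, 7.74 in young tumour and 4.90 in young sham. In at least 1 library all its UMIs lay in 5 or fewer cells. Gbp2, a guanylate-binding protein, gave -2.29 for both, at 4.69 CPM in old tumour, 7.61 in old sham, 10.2 in young tumour and 3.36 in young sham. The chemokine gene Ccl7 gave -2.86 for tumour, at 7.72 CPM in old tumour, 32.5 in old sham, 0.484 in young tumour and 0.280 in young sham. Its UMIs were equally few in both young libraries, so its young ratio was only that of the library totals. Cox6a2, a cytochrome oxidase subunit, gave -2.04, at 11.9 CPM in old tumour, 20.7 in old sham, 9.19 in young tumour and 3.92 in young sham. H2-Q4 gave -1.89, at 15.4 CPM in old tumour, 32.5 in old sham, 22.004 in young tumour and 12.5 in young sham. For age, H2-Q7 gave -3.62 and H2-Q6 gave -2.66. H2-Q6 stood at 7.72 CPM in old tumour, 6.92 in old sham, 11.8 in young tumour and 1.68 in young sham. Dusp2, a phosphatase, gave -3.64, at 2.48 CPM in old tumour, 22.1 in old sham, 4.11 in young tumour and 2.94 in young sham. Top2a, a topoisomerase of dividing cells, gave -3.62, at 1.65 CPM in old tumour, 16.6 in old sham, 4.11 in young tumour and 3.36 in young sham. Prr14, a nuclear lamina tether, gave -1.53, at 17.1 CPM in old tumour, 37.3 in old sham, 25.9 in young tumour and 19.6 in young sham.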

How the results depend on the processing

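No paired analysis was possible because each group is 1 library, and no replicate could be left out. Limits are the single library per group, the low depth per barcode, which makes a count of 0 a weak statement, and free RNA, which was not measured. Over the alternatives, 1035 recomputed list medians moved by less than 0.1 on the same side of 1.5-fold and 137 moved further or crossed it, and 16971 ratios of single genes stayed within the counting interval of the main value while 1346 left it, some of them turning from a value short of 1.5-fold. The median of immediate early genes stayed between -1.18 and -1.02 for old tumour over old sham and between -0.86 and -0.67 for young tumour over young sham.

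Quiet shares after thinning to 2000 UMIs were 55.5% in old tumour, 27.6% in old sham, 60.7% in young tumour and 67.1% in young sham. Counts of genes past 1.5-fold depended on which genes and cells were counted. They are given as higher and lower for old tumour over old sham, young tumour over young sham, old over young tumour and old over young sham, where the main counts were 468 and 475, 185 and 215, 296 and 213, and 640 and 485. With members of at least 4000 UMIs they were 890 and 751, 805 and 821, 855 and 661, and 1150 and 936. With genes of 50 CPM they were 52 and 82, 22 and 53, 46 and 18, and 152 and 72. With genes of 1 UMI in each library they were 1560 and 1744, 1048 and 1083, 1323 and 1151, and 1925 and 1532. With genes at least as high as in the comparison barcodes they were 110 and 226, 54 and 51, 92 and 86, and 308 and 116. In young mice with tumour, lower genes numbered 111 without mixed barcodes and 143 by the mean of each member's CPM. The number of genes or members entering each of these counts differs by construction.

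Among ratios past 1.5-fold in the main values, 15 recomputed ones turned, and the cause was not tested. Shorter ratios turned too, such as Apoe in old over young tumour, at -0.23 with members of at least 4000 UMIs. Without mixed barcodes the log2 ratios became -0.032 for Ccl2 and 0.42 for Cryab in old over young sham, -0.014 for Cdkn1c, -0.26 for Hspb1 and -0.42 for Ttr in old over young tumour, and 0.050 for Cryab and 0.54 for Ttr in young tumour over young sham. With doublets removed they became -0.47 for Hspb1 and -0.45 for Ttr in old over young tumour. Thinning gave -0.74 for Ccl7 and 0.40 for Cryab in young tumour over young sham. With 10 marker UMIs Ccl2 gave -0.47, with 4000 UMIs Avp gave 0.55, and by the mean of each member's CPM Cryab gave 0.30, all in old over young sham, and with 4000 UMIs Cxcl10 gave -0.29 in young tumour over young sham.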
